A study of Mus musculus with 6 samples.

Results

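The genes examined were 10 that encode surface markers by which mouse long-term (LT) haematopoietic stem cells are sorted or told apart from progenitors. They were Kit, Ly6a, Slamf1, Cd48, Flt3, Cd34, Procr, Thy1, Tek and Cd27. They were chosen by name, as the rows of the deposited expression table that carry these symbols, and all 10 were found among its 36976 genes. Only 5 of them encode antigens of the gate by which these cells were sorted, which was CD150+CD48-CD135- among Lineage- Sca-1+ cKit+ cells. Kit (cKit), Ly6a (Sca-1) and Slamf1 (CD150) were selected for, and Cd48 and Flt3 (CD135) were selected against. The other 5, Cd34, Procr, Thy1, Tek and Cd27, played no role in the sort.

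Stem cell sorting rests on surface proteins that are gained or lost as a cell leaves the stem cell state. Kit, the receptor of stem cell factor, and Sca-1 are shared by stem cells and multipotent progenitors, so CD150, CD48 and CD135 are added to separate them. CD150 and CD48 both belong to the SLAM family of receptors, and in normal marrow CD48 and the cytokine receptor Flt3 appear on multipotent progenitors, as does CD34.

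The libraries came from LT-CML stem cells of tet-CML-affected C57BL/6 mice, 3 libraries from Gdpd3+/+ animals (replicates 1, 2 and 3) and 3 from Gdpd3-/- animals (replicates 5, 6 and 7). All animals carried SCL-tTA and TRE-BCR-ABL1, so that BCR-ABL1 was switched on, wherever the SCL promoter drives tTA, when doxycycline was withdrawn at 5 weeks of age. Cells were taken 5 weeks after that induction. The Gdpd3+/+ group was made up of 22 males and 12 females and the Gdpd3-/- group of 5 males and 5 females, and which animals were pooled into which library is not stated. The Gdpd3-/- mice were made by genome editing with Cas9 early in the coding sequence. SMART-Seq libraries were read as pairs of 150 bases, and expression is given as FPKM (fragments per kilobase of gene length, scaled to the size of the library).

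Depth was inferred from the table, because every value times gene length is a multiple of 0.01 counts in each library. Gdpd3+/+ replicates 1, 2 and 3 summed to 49753146, 62762437 and 61283166 counts. Gdpd3-/- replicates 5, 6 and 7 summed to 21334716, 36421439 and 25136824 counts, so every Gdpd3-/- library was shallower than every Gdpd3+/+ library. Among the values above 0, between 47.2 and 55.2% were whole counts, and at least a further 16.2% in each library ended in 0.5. At these depths the markers rest on many counts, with the smallest number behind any value being 55 for Thy1 and 393 for Slamf1. The largest was 46919 for Kit. The paper's methods speak of both reads and fragments, so whether a count is a fragment or a read is unclear. Without molecular identifiers counts are not independent molecules.

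Gdpd3, the disrupted gene, was read first as a check of the labels. It stood at 7.30, 3.29 and 2.95 FPKM in the Gdpd3+/+ libraries and at 0.110, 0.0129 and 0.681 FPKM in the Gdpd3-/- libraries. No library of either genotype crossed into the range of the other, and replicate 7 kept the most signal among the Gdpd3-/- libraries. Its limma adjusted p was 0.0588 and did not pass, and with 1 library left out it was as low as 0.0106 (Gdpd3-/- replicate 7) and as high as 0.269 (Gdpd3+/+ replicate 1). Gdpd3 has 190 exon bases in common with Gm9967 on the opposite strand. The label of the cells was checked against the gate. All 3 genes selected for were expressed in every library, at 342 FPKM or more for Ly6a, 108 FPKM or more for Kit and 5.41 FPKM or more for Slamf1. The genes selected against were not silent, since Cd48 was at 39.8 FPKM or more and Flt3 at 9.80 FPKM or more in every library. Transcripts and surface protein were not compared here.

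In Gdpd3-/- LT-CML stem cells, Flt3, Cd34 and Cd27 were expressed more highly than in Gdpd3+/+ cells. Flt3, the cytokine receptor that the sort selected against, was 3.86 times as high in mean FPKM. Cd34, a sialomucin that is low or absent on the most primitive normal mouse stem cells, was 1.85 times as high, and Cd27, a receptor of the TNF receptor family, 1.69 times as high. The 3 genes selected for, Kit, Ly6a and Slamf1, overlapped between the genotypes. Flt3, Cd34 and Cd27, 3 of 10 markers and all of them higher, were called (adjusted p under 0.05), beside 1.71% of all 24689 genes tested (1.09% higher and 0.616% lower). After TMM scaling 2 of 10 were called (Flt3 and Cd34), beside 1.45% of all genes, and after quantile normalization 1 of 10 (Flt3), beside 1.32%. Of all genes, 121 were called higher and 237 lower after TMM scaling, and 119 higher and 206 lower after quantile normalization. The test was limma's moderated test on log2(FPKM + 0.1), with Benjamini-Hochberg adjustment over all genes tested, and all 10 markers passed its filter of a mean FPKM of at least 0.05. In 6 of 10 markers the libraries of the genotypes did not overlap, 5 of them higher (Flt3, Cd34, Cd27, Cd48 and Thy1) and 1 lower (Tek), beside 31.8% of all genes (23.5% higher and 8.27% lower). Over all genes the median log2 fold change was 0.24, or 0.06 after TMM scaling and -0.01 after quantile normalization, and Flt3, Cd34 and Cd27 lay above it in each case. All p-values measure the spread between these libraries, and where 1 Gdpd3-/- library was left, the spread among Gdpd3+/+ libraries only. In bulk RNA, more cells of a kind and more RNA in each cell cannot be told apart.

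**Figure D1:**
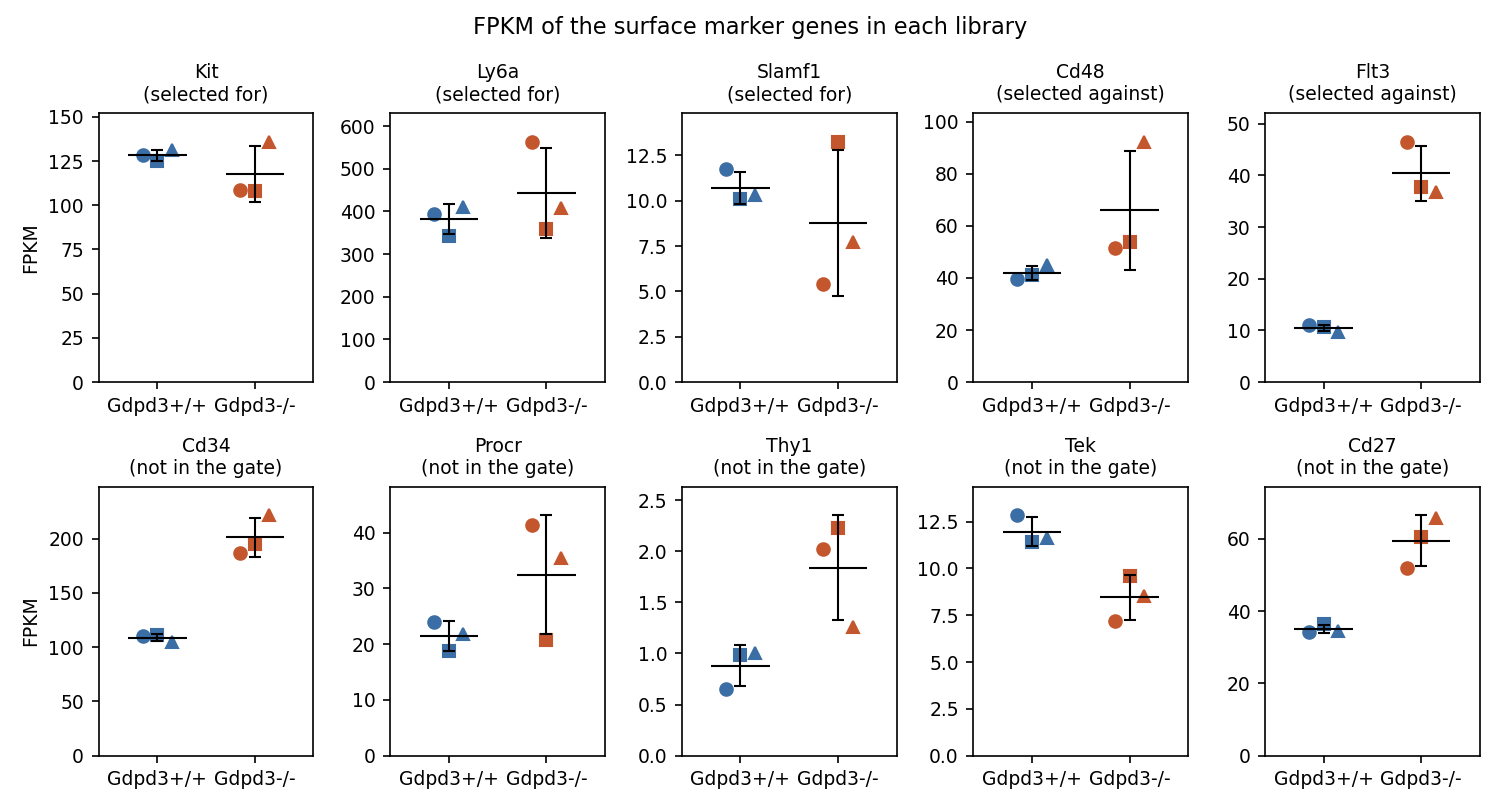
FPKM of the 10 markers in each library, with the role of each in the sort. Points are libraries (circle, square and triangle for replicates 1, 2 and 3 or 5, 6 and 7), the long line is the mean and the bars are 1 SD (n = 3); Flt3, Cd34 and Cd27 lie higher in every Gdpd3-/- library.

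Flt3 (ENSMUSG00000042817.9) lies on the reverse strand of chromosome 5, from 148142317 to 148212065 in mm9, the build of the deposited values. It had 11.0, 10.6 and 9.80 FPKM in Gdpd3+/+ replicates 1, 2 and 3. Gdpd3-/- replicates 5, 6 and 7 had 46.5, 37.8 and 36.8 FPKM. Each Gdpd3-/- library was thus well above the whole Gdpd3+/+ range, with replicate 5 the highest. The log2 fold change was 1.93 (standard error 0.13, limma adjusted p = 0.00562), with a 95% confidence interval of 1.62 to 2.24, and the difference was far larger than the spread within either genotype. It was called under every setting of scaling, pseudocount and filter that was run. Leaving out 1 library changed the call in the fits without Gdpd3+/+ replicate 1 (limma adjusted p = 0.0705) and without Gdpd3+/+ replicate 2 (limma adjusted p = 0.0502), while the log2 fold change stayed between 1.83 and 1.99. Among the 24689 genes tested, Flt3 ranked 6096, 6329 and 6551 by level in the Gdpd3+/+ libraries and 1829, 2315 and 2330 in the Gdpd3-/- libraries.

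Cd34 (ENSMUSG00000016494.3) is a forward-strand gene of chromosome 1 and spans 196765015 to 196787486 in mm9. Its level was 111, 111 and 105 FPKM in Gdpd3+/+ replicates 1, 2 and 3, and 187, 195 and 221 FPKM in Gdpd3-/- replicates 5, 6 and 7. The lowest Gdpd3-/- library was above the highest Gdpd3+/+ library, and replicate 7 was the highest of all. Means were 109 ± 3.38 FPKM (SD, n = 3) and 201 ± 18.1 FPKM (SD, n = 3), and the log2 fold change was 0.88 (standard error 0.10, limma adjusted p = 0.0204). The call was lost after quantile normalization (limma adjusted p = 0.0665), with no intensity trend (0.0926) and without Gdpd3+/+ replicate 1 (0.153), 2 (0.148) or 3 (0.158). It was kept when any Gdpd3-/- library was left out. Cd34 was the only marker whose exons overlap those of another gene in the table, with 148 bases shared with Gm16897 that runs the other way, and no source says whether the counting was stranded.

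Cd27 (ENSMUSG00000030336.8) lies on the reverse strand of chromosome 6, from 125182640 to 125187028 in mm9. The Gdpd3+/+ libraries held 34.3, 36.4 and 34.4 FPKM of Cd27. The Gdpd3-/- libraries held 51.9, 60.6 and 65.8 FPKM in replicates 5, 6 and 7. The genotypes did not overlap, and replicate 5 came closest to the Gdpd3+/+ range. Means were 35.1 ± 1.19 FPKM (SD, n = 3) and 59.4 ± 7.05 FPKM (SD, n = 3), with a log2 fold change of 0.75 (standard error 0.11, limma adjusted p = 0.0391). Its call was the least stable of the 3. It was lost after TMM scaling (limma adjusted p = 0.0876), after quantile normalization (0.0609), with no filter (0.0518) and with no intensity trend (0.134). It was also lost without Gdpd3+/+ replicate 1 (0.230), 2 (0.204) or 3 (0.233) and without Gdpd3-/- replicate 6 (0.0544).

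**Figure D2:**
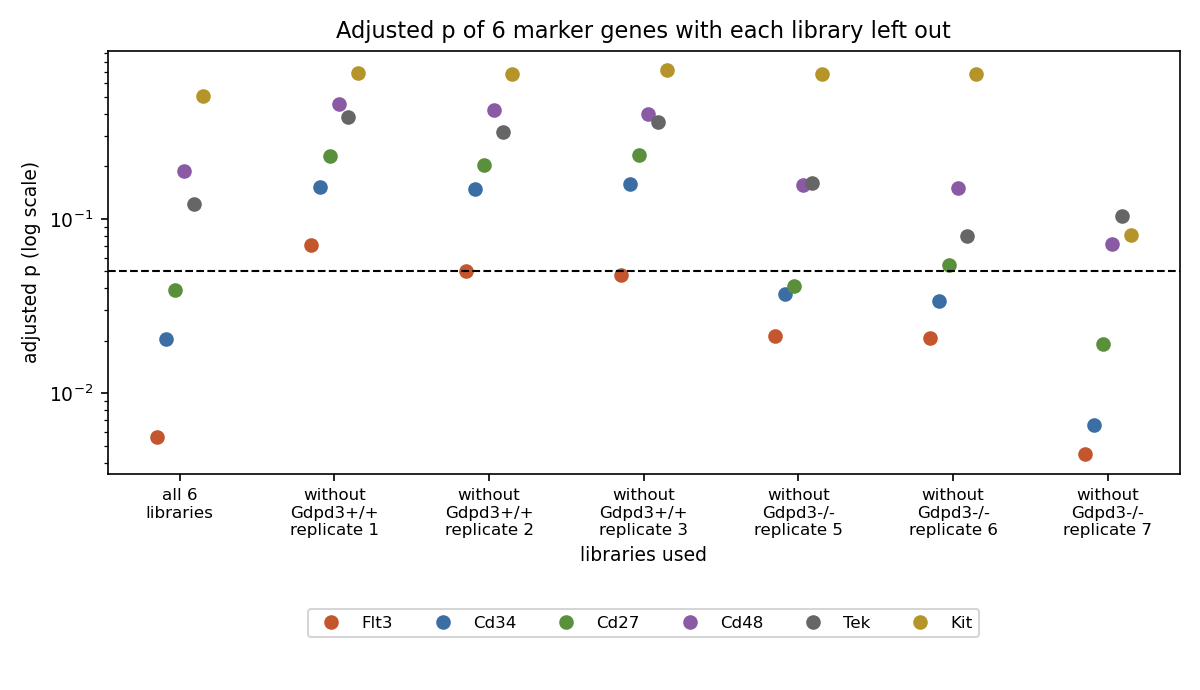
Adjusted p (log scale) of 6 markers from limma, with all 6 libraries and with each library left out. Points are genes and the dashed line is the limit of 0.05. Flt3 lies above it without Gdpd3+/+ replicate 1 or 2, and Cd34 and Cd27 without any of the Gdpd3+/+ libraries. Cd27 also lies above it without Gdpd3-/- replicate 6.

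The sequences before the starts of these 3 genes are shown because all 3 were higher in Gdpd3-/- cells. Among the Gdpd3-/- libraries their order differed, with Flt3 highest in replicate 5 and Cd34 and Cd27 highest in replicate 7. RefSeq on GRCm38.p6 gave a promoter for 8 of the 10 markers, all but Ly6a and Thy1. Each line holds the 250 bases before the start, read 5′ to 3′ on the strand of the gene, and capitals mark matches to any of 5 motifs searched on both strands. The windows are chr5:147400490-147400739 (reverse strand) for Flt3, chr1:194938571-194938820 (forward strand) for Cd34 and chr6:125237028-125237277 (reverse strand) for Cd27.

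Flt3: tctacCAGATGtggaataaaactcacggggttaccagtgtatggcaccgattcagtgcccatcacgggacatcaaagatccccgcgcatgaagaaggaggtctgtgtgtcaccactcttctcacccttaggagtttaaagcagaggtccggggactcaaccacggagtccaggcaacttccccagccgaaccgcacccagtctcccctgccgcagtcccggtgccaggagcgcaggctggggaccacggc

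Cd34: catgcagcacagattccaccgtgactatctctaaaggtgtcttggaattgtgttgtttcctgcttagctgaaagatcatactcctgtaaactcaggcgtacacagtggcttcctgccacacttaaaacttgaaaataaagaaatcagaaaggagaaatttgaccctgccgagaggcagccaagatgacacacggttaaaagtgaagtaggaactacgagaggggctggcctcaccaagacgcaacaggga

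Cd27: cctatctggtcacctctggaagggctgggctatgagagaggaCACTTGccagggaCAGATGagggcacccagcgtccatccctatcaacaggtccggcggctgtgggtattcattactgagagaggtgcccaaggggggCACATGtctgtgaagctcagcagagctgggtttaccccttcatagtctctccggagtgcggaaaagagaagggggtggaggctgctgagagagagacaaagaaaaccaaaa

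The letters searched were GAGGAA for the purine-rich motif of ETS factors, TGTGGT for Runx factors, AGATAA for GATA factors, AACTG for Myb and CANNTG for the E-box. Among 27025 promoters of the same length, 23.1% held GAGGAA, 14.2% TGTGGT, 10.3% AGATAA, 39.1% AACTG and 66.0% CANNTG. Flt3 had 1 E-box, which starts at -245 from the gene's start. Cd27 had 3 E-boxes, starting at -208, -195 and -111, and no marked motif overlapped another. Cd34 had none of the letters searched in this window. The 3 sequences therefore shared no motif of the 5, and a match in letters is a description and not a binding site.

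Cd48, the other gene selected against, encodes the ligand of Cd244. It was at 39.8, 41.2 and 44.8 FPKM in the Gdpd3+/+ libraries and at 51.6, 54.0 and 92.2 FPKM in the Gdpd3-/- libraries. All 3 Gdpd3-/- libraries were above the Gdpd3+/+ libraries, and replicate 7 stood apart from replicates 5 and 6. Its coefficient of variation was 6.15% in Gdpd3+/+ and 34.6% in Gdpd3-/- cells. The log2 fold change of 0.60 (standard error 0.23) did not pass the test (limma adjusted p = 0.188), and it was 0.33 without replicate 7, 0.40 after TMM scaling and 0.47 after quantile normalization. With Gdpd3-/- replicates 5 and 6 both left out, a setting chosen after their muscle values were seen, Cd48 passed it (log2 fold change 1.14, limma adjusted p = 0.0212), with the lone replicate 7 assumed to vary like the other libraries. Over 15 alternative settings that value and 0.455 (without Gdpd3+/+ replicate 1) were the ends of the range.

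The 3 genes selected for did not pass the test. Kit was at 128, 125 and 131 FPKM in Gdpd3+/+ replicates 1, 2 and 3, and at 108, 108 and 136 FPKM in Gdpd3-/- replicates 5, 6 and 7. Replicates 5 and 6 lay below the Gdpd3+/+ libraries and replicate 7 above them. The log2 fold change of Kit was -0.13 (standard error 0.12, limma adjusted p = 0.509), with -0.34 after TMM scaling, -0.33 after quantile normalization and 0.08 with replicates 5 and 6 left out. Ly6a was the most abundant of the 10 markers in each library, at 395, 342 and 410 FPKM in the Gdpd3+/+ libraries and 563, 360 and 408 FPKM in the Gdpd3-/- libraries. Only replicate 5 lay outside the Gdpd3+/+ range. Its log2 fold change of 0.19 (standard error 0.18, limma adjusted p = 0.532) turned to -0.01 after TMM scaling and to -0.0026 after quantile normalization. The value was 0.0077 without Gdpd3-/- replicate 5 and 0.33 without replicate 6. Slamf1 was at 11.7, 10.1 and 10.3 FPKM in Gdpd3+/+ replicates 1, 2 and 3, and at 5.41, 13.2 and 7.71 FPKM in Gdpd3-/- replicates 5, 6 and 7. Replicates 5 and 7 were below and replicate 6 above every Gdpd3+/+ library, which gave a coefficient of variation of 45.8%, against 8.20% in Gdpd3+/+ cells (limma adjusted p = 0.503).

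Of the markers outside the gate, Tek, Thy1 and Procr did not pass the test. Tek, the angiopoietin receptor Tie2, was at 12.8, 11.4 and 11.6 FPKM in the Gdpd3+/+ libraries and at 7.21, 9.59 and 8.54 FPKM in the Gdpd3-/- libraries. All Gdpd3-/- values were below all Gdpd3+/+ values (p = 0.1 in a two-sided exact permutation test, and 3 libraries against 3 allow no smaller p), and the limma adjusted p was 0.123. Thy1, a GPI-anchored glycoprotein, was the least abundant marker in each library, at 0.649, 0.983 and 1.01 FPKM in Gdpd3+/+ and 2.03, 2.23 and 1.26 FPKM in Gdpd3-/- cells. These did not overlap, with replicate 7 nearest to the Gdpd3+/+ range (limma adjusted p = 0.184). Procr, the endothelial protein C receptor, was at 24.0, 18.7 and 21.9 FPKM in the Gdpd3+/+ libraries and at 41.4, 20.7 and 35.4 FPKM in the Gdpd3-/- libraries. Replicate 6 fell within the Gdpd3+/+ range and replicates 5 and 7 lay above it (limma adjusted p = 0.277).

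**Figure D3:**
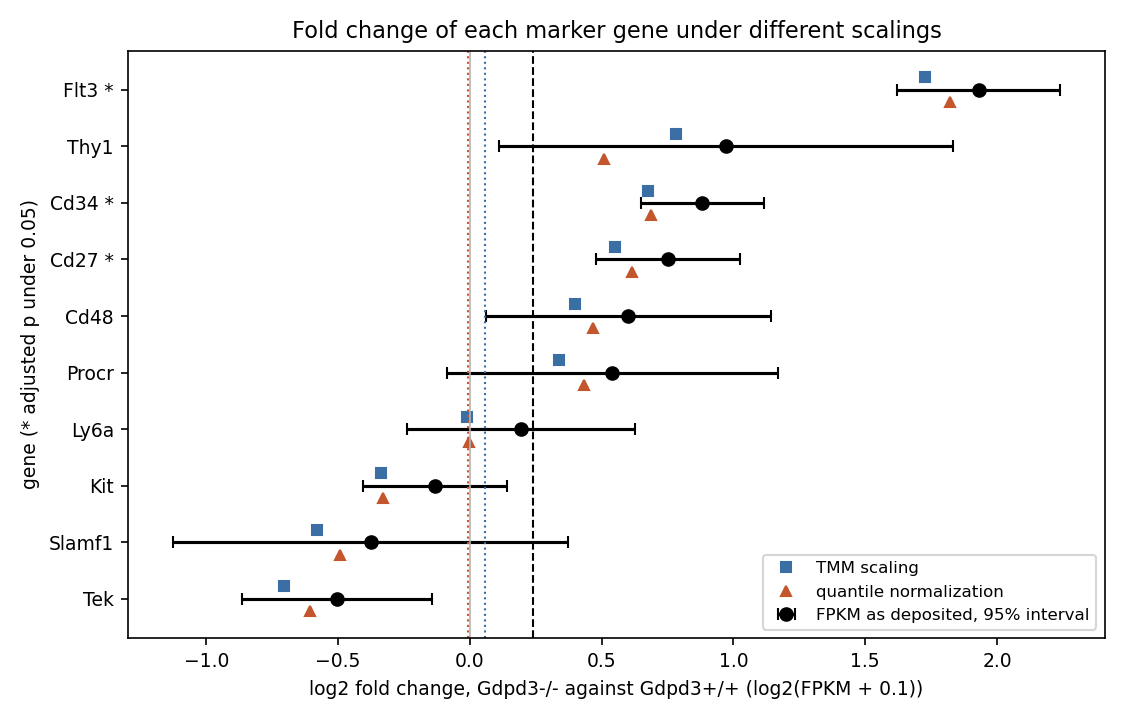
Log2 fold change of each marker with its 95% confidence interval from the deposited FPKM (black), after TMM scaling (squares) and after quantile normalization (triangles). Stars mark an adjusted p under 0.05, and the dashed and dotted lines are the medians of all genes, at 0.24, 0.06 and -0.01; Ly6a changes sign with both scalings.

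Each of the 10 markers varied more among the Gdpd3-/- libraries than among the Gdpd3+/+ libraries. The coefficient of variation ran from 2.46% (Kit) to 22.7% (Thy1) in Gdpd3+/+ and from 9.0% (Cd34) to 45.8% (Slamf1) in Gdpd3-/- cells. By mean level, the order in Gdpd3+/+ cells was Ly6a, Kit, Cd34, Cd48, Cd27, Procr, Tek, Slamf1, Flt3 and Thy1. Tek was above Slamf1 in each Gdpd3+/+ library, while Flt3 was above Slamf1 in replicate 2 only. In Gdpd3-/- cells the order by mean was Ly6a, Cd34, Kit, Cd48, Cd27, Flt3, Procr, Slamf1, Tek and Thy1. Flt3 was above Procr in each Gdpd3-/- library. Cd27 was above Cd48 in replicates 5 and 6, and Tek was above Slamf1 in replicates 5 and 7. The median log2 fold change was -0.13 for the 3 genes selected for (-0.34 after TMM scaling, -0.33 after quantile normalization and 0.08 with replicates 5 and 6 left out), 1.27 for the 2 selected against and 0.75 for the 5 outside the gate. Kit ranked 2 and Cd34 ranked 3 in every Gdpd3+/+ library, and the places were exchanged in every Gdpd3-/- library. Cd48 and Slamf1 are both forward-strand genes of chromosome 1 and span 173612140 to 173635389 and 173697258 to 173731315 in mm9.

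Ratios of markers within a library do not move when all its values are scaled by a common factor, though quantile normalization can change them. They were taken from the deposited FPKM. The log2 ratio of Flt3 to Kit was -3.54, -3.56 and -3.74 in the Gdpd3+/+ libraries 1, 2 and 3, against -1.22, -1.52 and -1.88 for Gdpd3-/- replicates 5, 6 and 7. The log2 ratio of Cd34 to Kit was -0.21, -0.17 and -0.32 in the Gdpd3+/+ libraries and 0.78, 0.85 and 0.70 in the Gdpd3-/- libraries. Both ratios were higher in every Gdpd3-/- library, by a mean log2 difference of 2.07 for Flt3 to Kit and 1.02 for Cd34 to Kit. The log2 ratio of Cd48 to Slamf1, which the gate sets against each other, was 1.76, 2.03 and 2.12 in the Gdpd3+/+ libraries and 3.25, 2.03 and 3.58 in the Gdpd3-/- libraries. Replicate 6 fell among the Gdpd3+/+ libraries, while replicates 5 and 7 were above them.

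**Figure D4:**
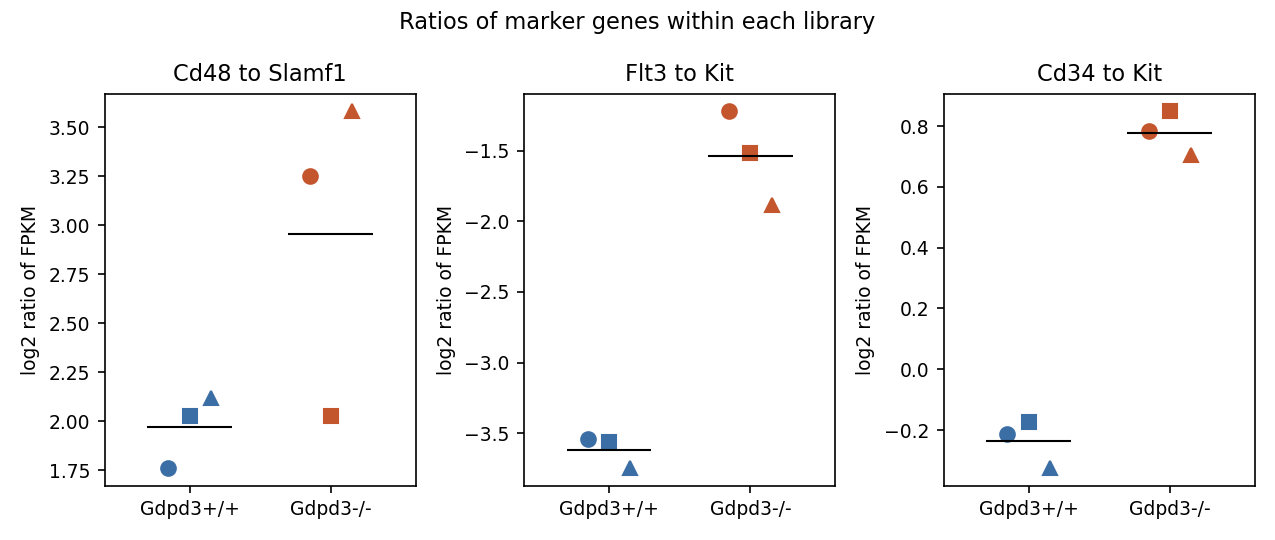
Log2 ratios of FPKM between markers within each library. Points are libraries (circle, square and triangle for replicates 1, 2 and 3 or 5, 6 and 7) and lines are means (n = 3); Flt3 to Kit and Cd34 to Kit separate the genotypes and Cd48 to Slamf1 does not.

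For each gate gene, the genes with the most similar pattern were sought by Pearson's r over the 6 libraries, on log2(FPKM + 0.1), among the 9640 genes whose mean FPKM was 5 or more. With 6 libraries and so many genes, high values of r are a description only. Flt3 was followed most closely by Gas5, a non-coding RNA gene (r = 0.9997), and Dusp2, a phosphatase gene (r = 0.999). Dusp2 was at 54.6, 56.4 and 53.2 FPKM in the Gdpd3+/+ libraries and at 121, 112 and 107 FPKM in the Gdpd3-/- libraries. Its lack of overlap follows from its choice by likeness to Flt3. Kit was closest to Gm16969 and Ubr2 (both r = 0.996), Ly6a to Lpcat3 (r = 0.995) and Myct1 (r = 0.985). Slamf1 was closest to Orc3 (r = 0.998) and Klf10 (r = 0.997), and Cd48 to Gm8226 (r = 0.988) and Ppp1r15a (r = 0.987).

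Lineage antibodies removed cells that stain for CD4, CD8a, B220, Mac1, Gr-1 or TER119. Of the 8 genes behind these antigens, 7 were tested, and 1, Ly6c2, was called lower, beside 0.616% of all genes. Their median log2 fold change was -0.55 (-0.34 without Gdpd3-/- replicate 5 and -0.26 with replicates 5 and 6 left out). Their levels summed to 1951, 1918 and 1995 FPKM in Gdpd3+/+ and to 573, 829 and 798 FPKM in Gdpd3-/- cells, most of it Ly6c2. Ly6c2, which the Gr-1 antibody can bind, was at 1731, 1729 and 1796 FPKM in the Gdpd3+/+ libraries. In the Gdpd3-/- libraries it was at 437, 667 and 660 FPKM. It was thus abundant in all 6 libraries and lowest in the Gdpd3-/- libraries, with a log2 fold change of -1.60 (standard error 0.18, limma adjusted p = 0.0222). It was not called without Gdpd3+/+ replicate 1, 2 or 3, with an adjusted p of up to 0.157 (limma, without replicate 1). Itgam, the Mac1 chain, was at 22.3, 20.6 and 19.3 FPKM in Gdpd3+/+ and 13.4, 1.69 and 8.43 FPKM in Gdpd3-/- cells. Ly6c1 was at 74.5, 83.7 and 80.8 FPKM in Gdpd3+/+ and 47.2, 60.5 and 34.2 FPKM in Gdpd3-/- cells (limma adjusted p = 0.0952, and 0.0494 without Gdpd3-/- replicate 7). In 3 of the 7 genes, Ly6c2, Itgam and Ly6c1, every Gdpd3-/- library was lower, beside 8.27% of all genes. Ly6g was at 19.0 to 44.2 FPKM and Cd4 at 0.315 to 2.31 FPKM over the 6 libraries. Ptprc was at 36.9 to 54.4 FPKM, but a value per gene cannot tell its B220 isoform from others. Cd8a was at 0 in 4 of 6 libraries and at 0.0012 FPKM or less in the others.

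Of 12 ligands and partners of the markers, 10 were tested and 0 were called, while 4 had an unadjusted p under 0.05 in limma, as did 22.2% of all genes tested. Their median log2 fold change of 0.08 turned to -0.08 after TMM scaling and -0.22 after quantile normalization. With 1 library left out it ran from -0.02 (Gdpd3-/- replicate 5) to 0.21 (Gdpd3-/- replicate 7). Kitl, the ligand of Kit, was at 0.0802 FPKM or less in all 6 libraries. Flt3l, the ligand of Flt3, was at 3.21, 2.6 and 3.01 FPKM in Gdpd3+/+ and 5.14, 2.32 and 2.35 FPKM in Gdpd3-/- cells, which overlapped. Angpt1, the ligand of Tek, was abundant, at 80.6 to 94.5 FPKM, beside 0.0881 to 0.394 FPKM for Angpt2 and 11.9 to 20.5 FPKM for Tie1, the sister receptor of Tek. Cd70, the ligand of Cd27, was at 0.0119 FPKM in Gdpd3+/+ replicate 1 and at 0 in the other 5 libraries. Cd244, the receptor of Cd48, was at 2.66, 3.72 and 2.79 FPKM in Gdpd3+/+ and at 9.78, 4.99 and 9.13 FPKM in Gdpd3-/- cells. Its libraries did not overlap (limma adjusted p = 0.0814). Cd2, also a partner of Cd48, was at 0 in Gdpd3-/- replicates 5 and 6 and at 0.577 to 0.881 FPKM in the others. F2r, which acts with Procr, was at 33.2 to 43.3 FPKM and 21.5 to 29.7 FPKM, Proc was at 0 in 5 of 6 libraries, and Itgb3, a binding partner of Thy1, was at 9.06 to 19.8 FPKM.

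Related receptors gave mixed values. Of 9 SLAM family genes tested 0 were called, with 4 at an unadjusted p under 0.05 in limma, beside 22.2% of all genes. Their median log2 fold change was -0.03 beside 0.24 for all genes. With 1 library left out this median ran from -0.33 (Gdpd3-/- replicate 7) to 0.05 (Gdpd3-/- replicate 6), and it was -0.24 after TMM scaling. Slamf9 was at 0 in Gdpd3-/- replicate 6 and at 9.82 to 27.0 FPKM in the others, and Cd84 was at 13.7 to 19.2 FPKM. Of the 5 class III receptor kinases, the family of Kit and Flt3, Flt3 and Pdgfrb were called higher, beside 1.09% of all genes. Pdgfrb was at 4.87, 5.61 and 4.90 FPKM in the Gdpd3+/+ libraries and at 11.2, 9.67 and 9.89 FPKM in the Gdpd3-/- libraries, which did not overlap. Its log2 fold change was 0.99 (standard error 0.15, limma adjusted p = 0.0365), and it was not called after TMM scaling (0.0559), after quantile normalization (0.0516) or without any of the Gdpd3+/+ libraries (up to 0.235, without replicate 3). The median of these kinases moved with the settings, from 0.68 to 0.26 after quantile normalization and 0.29 with a pseudocount of 1.

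Other genes of the stem cell state were read beside all genes, of which 1.71% were called. Of 15 further stem cell surface genes 0 were called, with 4 at an unadjusted p under 0.05 in limma, beside 22.2% of all genes. Their median log2 fold change was 0.19, which turned to -0.02 after TMM scaling. Among the most abundant were Cd63 at 409 to 483 FPKM and Cd9 at 58.6 to 79.1 FPKM. Of 18 transcription and quiescence genes of LT stem cells, with a median log2 fold change of 0.23 (0.03 after either scaling), 1 was higher, or 5.56%. That was Hoxa9, at 15.8, 16.8 and 16.8 FPKM in Gdpd3+/+ and 27.4, 23.5 and 26.1 FPKM in Gdpd3-/- cells, with a log2 fold change of 0.64 (limma adjusted p = 0.0483, and 0.247 without Gdpd3+/+ replicate 3). It was not called after TMM scaling (limma adjusted p = 0.106) or quantile normalization (0.0809). Gata2, Gfi1b and Meis1, the most abundant of this list, were at 44.3 to 59.8, 38.3 to 55.5 and 39.6 to 62.2 FPKM.

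Among genes of multipotent and lymphoid-primed progenitors, the cells that CD135 marks, 2 of 11 were called higher, beside 1.09% of all genes. In 6 of the 11 every Gdpd3-/- library was higher and in 2 lower, beside 23.5% and 8.27% of all genes. Dntt, the terminal transferase of lymphoid progenitors, was at 1.73, 0.966 and 1.63 FPKM in the Gdpd3+/+ libraries. The Gdpd3-/- libraries had 15.8, 12.1 and 51.7 FPKM of it. Every Gdpd3-/- library was above the Gdpd3+/+ range, and replicate 7 was the highest. The log2 fold change of Dntt was 3.85 (standard error 0.55, limma adjusted p = 0.0335, and 0.186 without Gdpd3+/+ replicate 2), and it was not called with a pseudocount of 1 (0.0547) or with no filter (0.0538 in limma). Lsp1 was at 23.6 to 27.6 FPKM in Gdpd3+/+ and 38.4 to 43.8 FPKM in Gdpd3-/- cells (limma adjusted p = 0.0457, and 0.247 without Gdpd3+/+ replicate 3). Only Dntt was called after TMM scaling and quantile normalization, where Lsp1 had adjusted p-values of 0.0921 and 0.0765 (limma). The list had a median log2 fold change of 0.66, beside 0.24 for all genes, and of 0.46 beside 0.06 after TMM scaling and 0.50 beside -0.01 after quantile normalization. Its most abundant gene, Ighm, was at 34512 to 37136 FPKM in Gdpd3+/+ and at 8439 to 17567 FPKM in Gdpd3-/- cells, and Cd52 was at 108 to 156 FPKM.

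**Figure D5:**
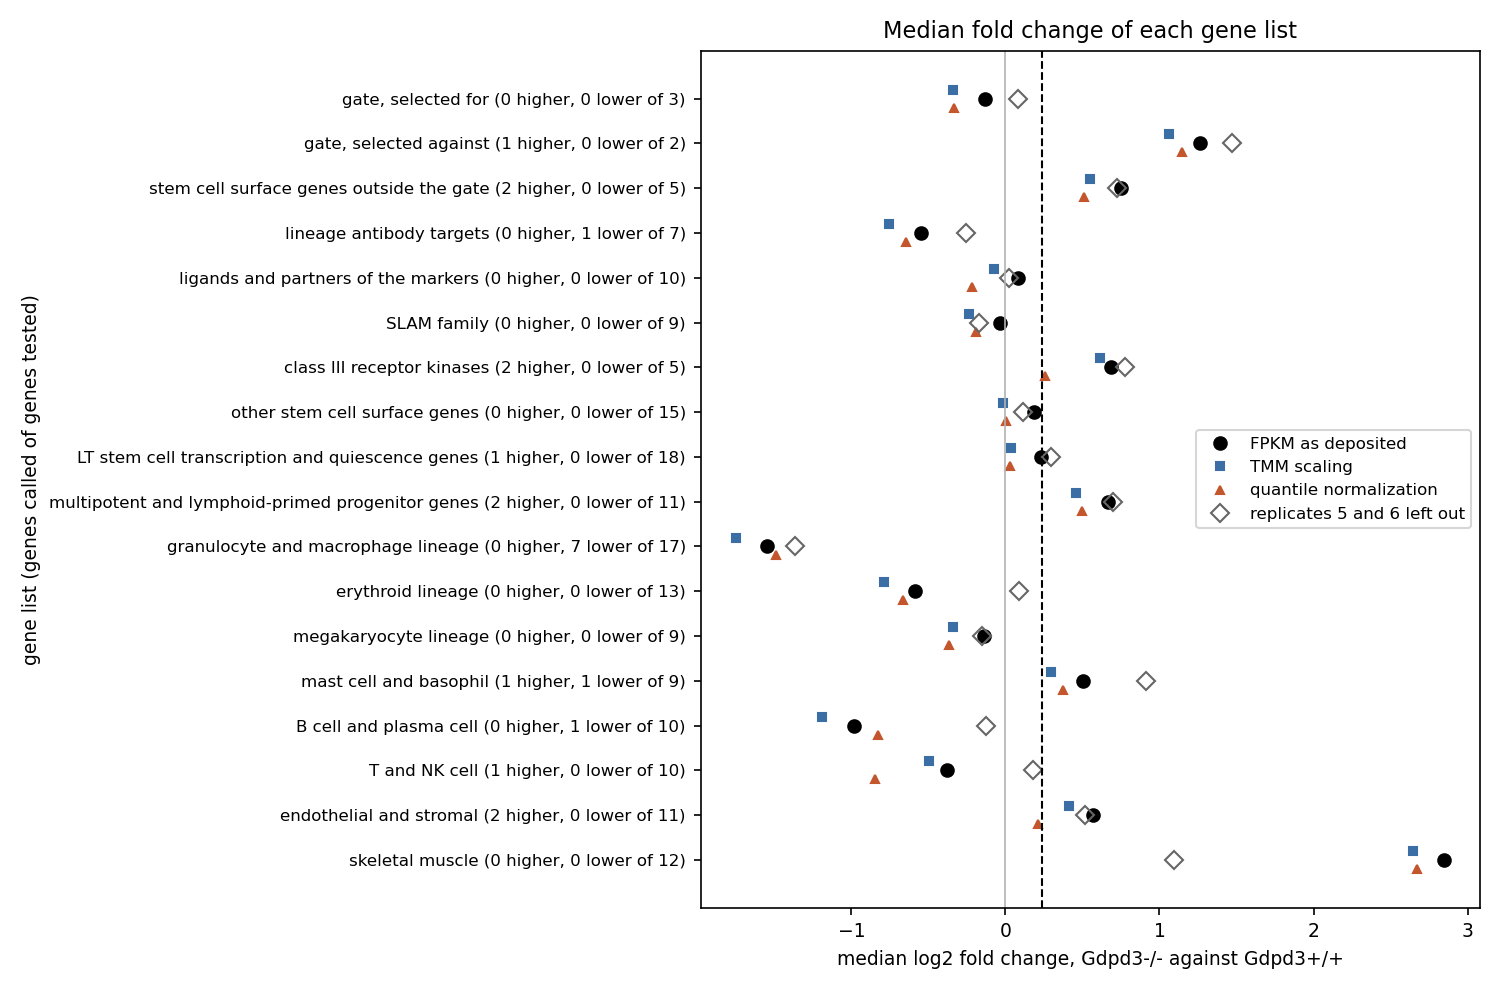
Median log2 fold change of each gene list from the deposited FPKM, after both scalings and with Gdpd3-/- replicates 5 and 6 left out. Labels give the genes called and tested, and the dashed line is the median of all genes; from the deposited FPKM the muscle list has the highest median, at 2.85, and with replicates 5 and 6 left out it is at 1.10, below 1.47 for the genes selected against.

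Of 17 genes of the granulocyte and macrophage lineage, 7 were called lower in Gdpd3-/- cells, beside 0.616% of all genes. Of the others, 0 were higher and 10 did not pass the test. In 13 of the 17 every Gdpd3-/- library was lower, beside 8.27% of all genes. The 7 were Ms4a3, Cebpe, and the granule protein genes Elane, Prtn3, Ltf, Ngp and Camp. Cebpe, a transcription factor of granule genes, was at 13.0, 15.5 and 13.5 FPKM in Gdpd3+/+ and at 4.54, 4.01 and 5.37 FPKM in Gdpd3-/- cells, without overlap. Its log2 fold change was -1.58 (standard error 0.16, limma adjusted p = 0.0197, and 0.153 without Gdpd3+/+ replicate 1). The other 6 had log2 fold changes from -1.93 (Camp) to -1.01 (Prtn3), and Elane and Ngp were not called after quantile normalization (limma adjusted p = 0.0943 for both). Summed over the list, the level was 34990, 31706 and 33728 FPKM in the Gdpd3+/+ libraries and 15650, 9721 and 10929 FPKM in the Gdpd3-/- libraries. The most abundant gene, S100a8, was at 11686 to 13261 FPKM and 3060 to 6441 FPKM. The list median was -1.54 on the log2 scale, -1.75 after TMM scaling and -1.49 after quantile normalization. None of the 17 was at 0 in any library, and the part of such cells in the marker values was not tested.

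Genes of the other cell types were read in the same way, beside 1.09% of all genes called higher and 0.616% called lower. Of 9 mast cell and basophil genes, whose median log2 fold change was 0.50 (0.30 after TMM scaling, 0.38 after quantile normalization and 0.91 with replicates 5 and 6 left out), Cpa3 was higher and Hdc lower. Cpa3, a mast cell protease, was at 27.2, 43.7 and 69.6 FPKM in Gdpd3+/+ and at 169, 148 and 159 FPKM in Gdpd3-/- cells (log2 fold change 1.86, limma adjusted p = 0.0483, and 0.221 without Gdpd3+/+ replicate 2). It was not called after TMM scaling (0.0663) or quantile normalization (0.0678 in limma). Hdc, the histidine decarboxylase, was at 13.0 to 14.1 FPKM in Gdpd3+/+ and 6.49 to 8.04 FPKM in Gdpd3-/- cells (limma adjusted p = 0.0362, and 0.244 without Gdpd3+/+ replicate 3). The list summed to 204, 284 and 409 FPKM in the Gdpd3+/+ libraries and to 867, 736 and 631 FPKM in the Gdpd3-/- libraries, and Tpsb2 had the highest mean over the 6 libraries. Of 10 B cell and plasma cell genes (median -0.98, and -0.13 with replicates 5 and 6 left out), Xbp1 was lower, at 246 to 275 FPKM against 113 to 158 FPKM (limma adjusted p = 0.0334, and 0.197 without Gdpd3+/+ replicate 1). Ms4a1 and Pax5 were at 0 in replicate 6. The list summed to 36804 to 40057 FPKM in Gdpd3+/+ and to 9515 to 19513 FPKM in Gdpd3-/- cells, most of it Ighm. Of 10 T and NK cell genes, Gzma was higher, at 0.15 to 0.560 FPKM against 3.81 to 10.6 FPKM (limma adjusted p = 0.0321, and 0.174 without Gdpd3+/+ replicate 3). The list median was -0.38 on the log2 scale, -0.49 after TMM scaling, -0.85 after quantile normalization and 0.18 with replicates 5 and 6 left out. The list summed to 392 to 466 FPKM against 170 to 331 FPKM, most of it Nkg7, and Trac and Cd3e reached 1.15 and 0.751 FPKM at most.

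Of 13 erythroid genes 0 were called, with 1 at an unadjusted p under 0.05 in limma, beside 22.2% of all genes. The list summed to 5031, 3768 and 3210 FPKM in Gdpd3+/+ and to 1974, 3221 and 4992 FPKM in Gdpd3-/- cells. Hba-a1 had the highest mean over the 6 libraries, though not in the Gdpd3-/- libraries, and the median log2 fold change of the list was -0.58 (0.09 with replicates 5 and 6 left out). Of 9 megakaryocyte genes 0 were called, with 2 at an unadjusted p under 0.05 in limma, beside 22.2% of all genes. Gp6 was at 0 in every library, and Pf4, with the highest mean, was at 121 to 310 FPKM. The list summed to 356, 448 and 450 FPKM in Gdpd3+/+ and to 347, 651 and 372 FPKM in Gdpd3-/- cells, with a median log2 fold change of -0.14 (-0.34 after TMM scaling, -0.36 after quantile normalization and 0.12 without Gdpd3-/- replicate 5). Of 11 endothelial and stromal genes (median log2 fold change 0.57, and 0.41 after TMM scaling and 0.21 after quantile normalization), Egfl7 and Pdgfrb were called higher, beside 1.09% of all genes. Egfl7 was at 9.77 to 12.4 FPKM against 19.7 to 24.7 FPKM (limma adjusted p = 0.0454, and 0.235 without Gdpd3+/+ replicate 3). Neither Egfl7 nor Pdgfrb was called after TMM scaling (0.0715 for Egfl7) or quantile normalization (0.0598 for Egfl7 in limma). Cdh5, which defines endothelium, was at 0 to 0.217 FPKM in Gdpd3+/+ and 0.0599 to 0.723 FPKM in Gdpd3-/- cells, and the list summed to 30.3 to 37.2 FPKM and 45.2 to 58.0 FPKM. The part of these cell types in the marker values was not tested. Over all lists 20 genes were called, and without Gdpd3+/+ replicate 1, 2 or 3 the number was 0, 0 and 1 (Flt3), with 3356, 3525 and 3238 of all genes at an unadjusted p under 0.05 in limma. With no intensity trend 2 of the 20 were called, Flt3 and Cebpe. Without Gdpd3-/- replicate 5 the calls of Pdgfrb, Hoxa9, Dntt, Lsp1, Cpa3, Xbp1, Gzma and Egfl7 were lost (limma adjusted p from 0.0620 for Gzma to 0.0966 for Cpa3). Without replicate 6 those of Cd27, Lsp1, Cpa3, Egfl7, Elane, Ngp and Camp were lost (from 0.0533 for Camp to 0.0691 for Cpa3). With replicates 5 and 6 both left out, those of Pdgfrb, Lsp1, Prtn3, Ltf, Cpa3, Xbp1, Gzma and Egfl7 were lost. That fit holds 1 Gdpd3-/- library, so its calls do not measure spread among Gdpd3-/- libraries. A pseudocount of 1 ended those of Hoxa9, Dntt, Lsp1, Elane, Ltf, Ngp, Cpa3, Gzma and Egfl7, and testing with no filter ended the same 9 and those of Cd27, Prtn3, Camp and Xbp1.

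Skeletal muscle genes set Gdpd3-/- replicates 5 and 6 apart. Of 12 muscle genes tested 0 were called by limma, but all 12 had an unadjusted p under 0.05, beside 22.2% of all genes, and all 12 were higher in every Gdpd3-/- library, beside 23.5%. Without Gdpd3-/- replicate 7 all 12 were called (limma adjusted p of 0.00709 or less). Their summed level was 1325, 926 and 898 FPKM in the Gdpd3+/+ libraries. In Gdpd3-/- replicates 5, 6 and 7 it was 11512, 16522 and 2206 FPKM. Acta1, skeletal muscle actin, was the most abundant gene of the list in these libraries. The levels of Flt3, Cd34 and Cd27 in replicate 7 were 36.8, 221 and 65.8 FPKM, against highest Gdpd3+/+ values of 11.0, 111 and 36.4 FPKM. Replicate 7 was itself above every Gdpd3+/+ library in muscle genes, and their part in the marker values was not tested.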

How the data were processed

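Per the labels, reads were aligned with STAR 2.6.1a to mm9 and counted by featureCounts 1.6.1, and the authors deposited FPKM (fragments per kilobase of gene length, scaled to library size). A further deposited file holds the authors' DESeq2 comparison of the genotypes and was not used. Depth was inferred from the steps of FPKM times length (tolerance 0.01 steps, 100 steps to a count). Genotype was the only term in limma 3.58.1 (R 4.3.3), run on log2(FPKM + 0.1) with an intensity trend, where the mean FPKM was at least 0.05. Benjamini-Hochberg adjustment covered all genes tested. For single markers, SciPy 1.17.1 gave two-sided exact permutation tests (20 assignments, smallest p 0.1). Functions were tested on simulated data. Named genes are the 10 markers, all lineage antibody targets and marker ligands or partners, the 3 most abundant and every called gene of the other lists, Gdpd3, Acta1, and the 2 genes most alike each gate gene. Some other genes were chosen once values had been seen. Some genes that the rule names are not reported here. The members and the 18 lists were chosen with earlier results of these data known. The fit was repeated with pseudocounts of 0.01 or 1, without a filter or with one at a mean FPKM of 1, and without a trend. It was also repeated after quantile normalization, after TMM scaling (trimming 30% of M and 5% of A), and with each library left out. Leaving out Gdpd3-/- replicates 5 and 6 together, voom weights on inferred counts and the motifs were chosen after results were seen, and the TMM code was revised after its first output. Wfdc17 and Mzb1 are not in the table under these symbols.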

Additional observations from a re-analysis of the deposited data

How the results depend on the processing

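No paired analysis was possible because replicates are numbered 1, 2 and 3 in Gdpd3+/+ and 5, 6 and 7 in Gdpd3-/- cells, so none can be matched. Of all genes, 422 were called. A pseudocount of 1 gave 225 (124 higher, 101 lower), no filter gave 213 (125, 88), a filter at a mean FPKM of 1 gave 673 (471 higher) and no intensity trend gave 153 (79, 74). There were 121 higher and 237 lower genes under TMM scaling, and 119 higher and 206 lower under quantile normalization, so the balance of 270 higher and 152 lower was reversed by both. Settings chosen after seeing the data gave 903 (671, 232) with voom weights on inferred counts and 2294 (1896, 398) with Gdpd3-/- replicates 5 and 6 left out. With 1 library left out, the lowest total was 0 (no Gdpd3+/+ replicate 1; 3356 genes had an unadjusted p under 0.05 in limma) and the highest 3413 (no Gdpd3-/- replicate 7), with 0 to 2364 higher and 0 to 1049 lower. The 3 markers called became 1 (Flt3) after quantile normalization and with no intensity trend, and 0 to 3 with 1 library left out. The 20 list genes called became 11 with a pseudocount of 1, 7 with no filter, 11 after quantile normalization, 2 with no intensity trend, and 0 to 54 with 1 library left out. The markers without overlap numbered 6 to 8 with 1 library left out, beside 35.5% to 47.4% of all genes. Differences in log2 ratio were then 0.67 to 1.45 for Cd48 to Slamf1, 1.91 to 2.24 for Flt3 to Kit and 0.97 to 1.05 for Cd34 to Kit. Signs turned for Kit (0.084 with replicates 5 and 6 left out) and Ly6a (-0.012 with TMM scaling, -0.0026 after quantile normalization). Over 29 single genes, 291 of 435 values kept direction and side of the limit, 137 lost the call, 4 gained it and 3 turned. Of 270 list medians 41 moved by more than the spread. Apart from fewer libraries or genes, the cause was not tested.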
